A study of Homo sapiens with 8 samples.

Results

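The 36 genes described here act when a cell enters and completes mitosis, and most of them are transcribed late in the cell cycle, in G2 and M phase. They were taken by symbol from tables of 19479 genes measured by RNA-seq in AC16. This is a proliferating human cell line, established by cell fusion between primary ventricular heart cells of adults and a fibroblast line. All 36 were found, and all 36 passed the filter on low values, which asked for 1 RPKM or more in 2 or more fitted libraries. The study asked how the line responds when glucose rises to a hyperglycemic level. Its 8 libraries form 4 groups of 2. In the 25 to 50 mM group, cells kept at 25 mM D-glucose were given 25 mM more for 24 h. The 25 mM group is their control and stayed at 25 mM. In the 5 to 50 mM group, cells kept at 5 mM were given 45 mM more for 24 h, and the 5 mM group is their control. Cells were held at their starting glucose for at least 3 passages, and all groups were grown in DMEM with 10% serum. No osmotic control is among the samples used here. The submitters call the 2 libraries of a group technical replicates, so every p-value measures the spread between such libraries, and an effect of the starting glucose cannot be told apart from other differences between the separately kept 25 mM and 5 mM cultures.

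Entry into mitosis is driven by CDK1 bound to cyclin A or cyclin B. CDK1, with the polo and aurora kinases, condenses the chromosomes, builds the spindle and attaches it to the kinetochores. The spindle checkpoint holds the cell until every chromosome is attached; the anaphase promoting complex then destroys cyclin B and securin, sister chromatids part, and the midzone of the spindle directs cytokinesis. Most of these genes are silent in resting cells, where the DREAM complex sits on their promoters, and are activated in G2 by the factors B-MYB and FOXM1. Adult heart muscle cells rarely divide and express few of them.

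The read total behind the RPKM of each library was read back from the values themselves. These totals were 21538898 to 27372851 reads, of which 202983 to 304147 fell in the 36 genes. Since 99.9% of each total lay in the listed genes, the totals appear to count reads in those genes and not all reads sequenced. Values are RPKM, reads per kilobase of coding length scaled to that total in each library, so levels can be compared between genes. Of 14 markers of cardiomyocytes, 12 were under 1 RPKM in every library and 3 of these (MYL2, NKX2-5 and TNNI1) were listed at 0 throughout. The summed level of the 14 ran from 0.924 to 1.34 RPKM at 25 to 50 mM, 1.07 to 1.71 at 25 mM, 3.48 to 3.79 at 5 to 50 mM and 1.69 to 1.79 at 5 mM. The 12 fibroblast markers were all present, and summed to 7676 to 8273 RPKM at 25 to 50 mM, 7437 to 7702 at 25 mM, 8525 to 8789 at 5 to 50 mM and 7956 to 8449 at 5 mM. Within that list 6 markers were called higher and 5 lower at 25 mM against 5 mM, against 17.0% and 22.1% of all genes tested. Among them were FAP (log2 change -1.06), S100A4 (-1.08), FN1 (-0.62) and THY1 (0.44). At 25 to 50 mM against 5 to 50 mM 4 markers were higher and 5 lower, against 18.1% and 23.3% of all genes tested. Fewer were higher with a library of either raised group left out, and fewer lower without 5 to 50 mM replicate 1. In those fits fewer of all genes were called too. Of 5 endothelial markers CDH5 was listed at 0 and TEK stood at 2.5 to 4.38 RPKM. The other 3 stayed under 1 RPKM, PECAM1 and KDR at 0 to 0.177 RPKM in the libraries with a 25 mM history and at 0.659 to 0.942 RPKM in those with a 5 mM history. Among leukocyte markers CD3E was listed at 0, PTPRC stayed at or under 0.214 RPKM, and CD68, a lysosomal protein that many cultured cells make, stood at 85.1 to 91.7 RPKM with a 25 mM history and at 214 to 251 RPKM with a 5 mM history (log2 change -1.42 at 25 mM against 5 mM, adjusted p = 1.43e-06, and -1.34 at 50 mM). Of 4 epithelial markers EPCAM and CDH1 were under 1 RPKM, KRT8 stood at 13.5 to 16.8 RPKM, and KRT18, at 150.5 to 212 RPKM, was lower with a 25 mM history in both comparisons (-0.27, adjusted p = 0.00481, and -0.40, adjusted p = 0.000695). Of the cardiomyocyte markers only ACTC1 passed the filter and was tested in limma. Its log2 change was -0.31 (adjusted p = 0.12) at 25 mM against 5 mM and -0.93 (adjusted p = 0.00155) at 50 mM. Thus some markers of several cell types moved with the glucose history, as did many of all genes tested. The part of these markers in the results below was not tested.

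Every one of the 36 genes was well expressed. Averaged over the groups, the level ran from 18.3 RPKM for CENPE, the kinetochore motor, to 660.1 RPKM for CKS2, a small subunit of CDK kinases. The next highest were UBE2C at 376 RPKM, CCNB1 at 331 RPKM, PTTG1 at 331 RPKM and ANLN at 304 RPKM. CCNB1 and PTTG1 were closer to each other than libraries of a group were. MKI67, the antigen used to mark dividing cells in tissue, averaged 72.7 RPKM. The summed level of the 36 was 5635 and 5828 RPKM at 25 to 50 mM, 5982 and 6121 RPKM at 25 mM, 4836 and 4904 RPKM at 5 to 50 mM, and 5444 and 5196 RPKM at 5 mM. Both 25 mM libraries thus lay above both 5 mM libraries, and both libraries of each raised group lay below both of their own controls.

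**Figure D1:**
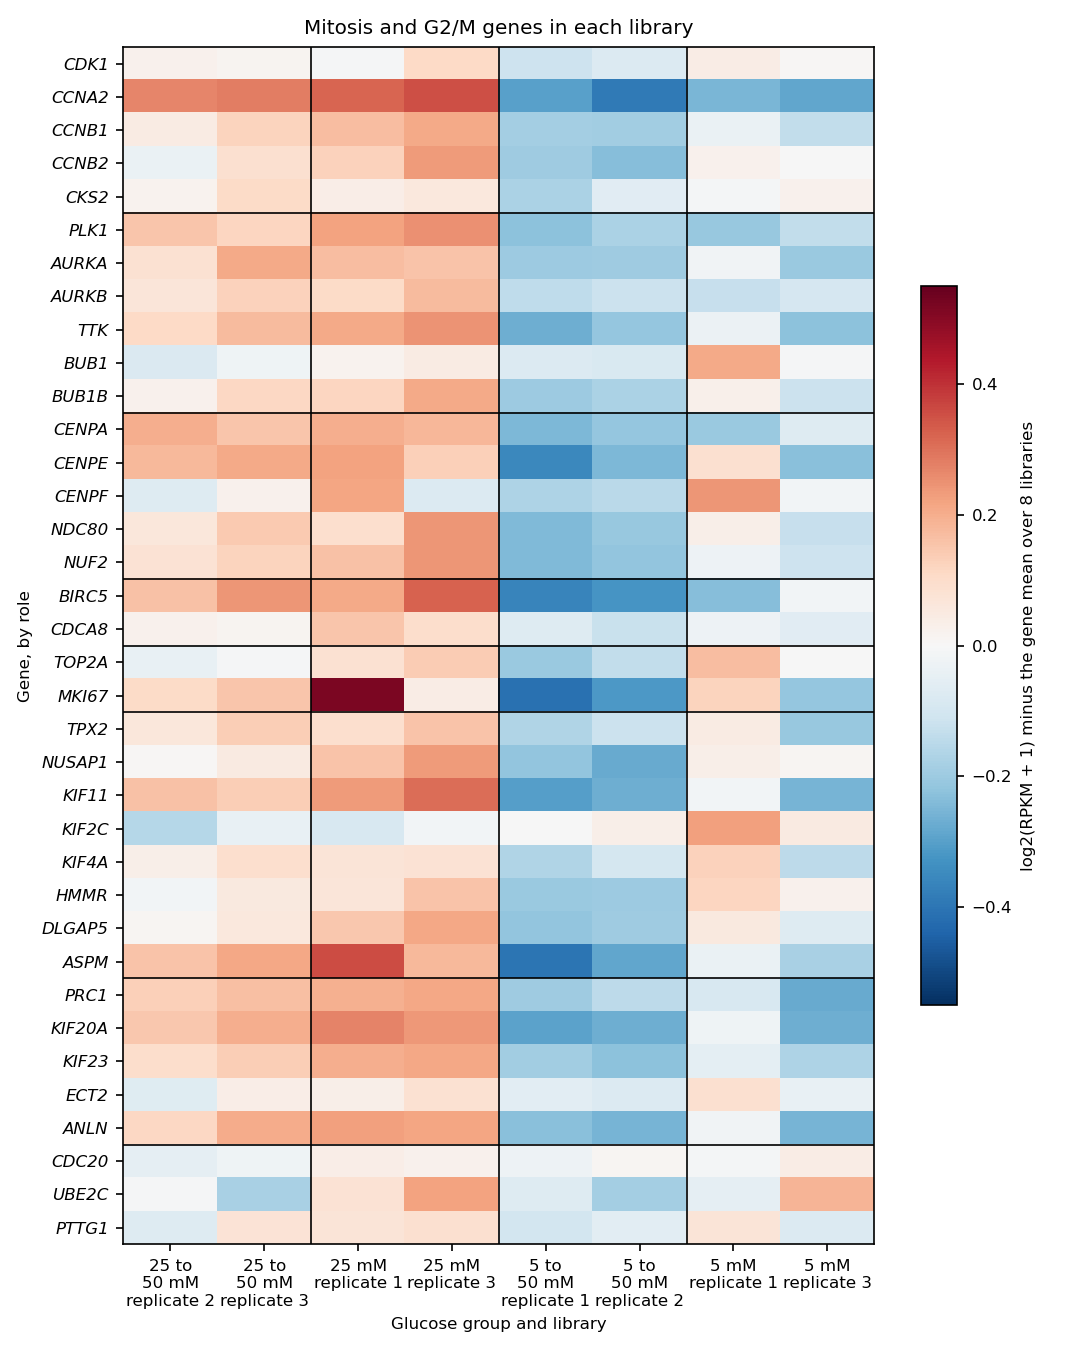
Heat map of the 36 genes (rows, grouped by role) in the 8 libraries (columns). Colour is log2(RPKM + 1) minus the gene's mean over all libraries, from blue (lower) to red (higher). The median gene sat at 0.05 and 0.12 in the 25 to 50 mM libraries, 0.15 and 0.18 at 25 mM, -0.20 and -0.19 at 5 to 50 mM, and -0.01 and -0.10 at 5 mM.

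Late cell cycle promoters often carry a short element called the CHR (cell cycle genes homology region), which DREAM and B-MYB complexes bind, and CCAAT boxes, which NF-Y binds. Since many of the 36 genes moved together below, their promoters were searched in RefSeq sequence (GRCh38.p14) from 250 bases before to 50 bases after the annotated start, on both strands, for TTTGAA or TTCGAA (CHR) and for CCAAT. The reference table held 31 of the 36 promoters. CHR letters were in 24 of the 31 (77.4%), against 16.6% of all 27305 promoters in the table and 11.2% of the 9872 that belong to genes tested here. At least 1 CCAAT was in 25 of 31 (80.6%), against 35.7% of all promoters and 36.9% of those of genes tested. At least 2 were in 17 of 31 (54.8%), against 11.3% and 14.1%. CHR letters together with at least 2 CCAAT letters were in 14 of 31 (45.2%), against 1.98% of all promoters and 1.89% of those of genes tested. The stretches of 250 bases that end just before the start are shown because they carry the motifs in different layouts and belong to genes with different results below. They lie at chr4:121823884-121824133 (minus strand) for CCNA2, chr16:23678639-23678888 (plus strand) for PLK1, chr15:59104896-59105145 (plus strand) for CCNB2 and chr1:43358731-43358980 (plus strand) for CDC20. Capitals mark the CHR and CCAAT letters on either strand.
CCNA2: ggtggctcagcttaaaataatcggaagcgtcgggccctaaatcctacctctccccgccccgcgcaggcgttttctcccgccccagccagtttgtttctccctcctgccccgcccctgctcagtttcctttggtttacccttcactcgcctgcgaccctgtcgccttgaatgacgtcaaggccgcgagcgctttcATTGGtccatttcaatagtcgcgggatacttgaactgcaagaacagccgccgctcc
PLK1: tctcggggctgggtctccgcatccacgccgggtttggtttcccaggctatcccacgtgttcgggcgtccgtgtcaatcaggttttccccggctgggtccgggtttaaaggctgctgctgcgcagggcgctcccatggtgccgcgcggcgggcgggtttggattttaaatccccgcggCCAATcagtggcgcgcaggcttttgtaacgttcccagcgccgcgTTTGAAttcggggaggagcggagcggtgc
CCNB2: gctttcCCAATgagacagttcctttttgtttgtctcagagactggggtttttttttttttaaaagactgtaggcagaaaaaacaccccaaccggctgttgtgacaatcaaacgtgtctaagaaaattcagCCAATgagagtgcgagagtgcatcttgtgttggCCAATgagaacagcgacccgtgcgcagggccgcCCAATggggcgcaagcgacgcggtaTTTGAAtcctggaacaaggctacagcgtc
CDC20: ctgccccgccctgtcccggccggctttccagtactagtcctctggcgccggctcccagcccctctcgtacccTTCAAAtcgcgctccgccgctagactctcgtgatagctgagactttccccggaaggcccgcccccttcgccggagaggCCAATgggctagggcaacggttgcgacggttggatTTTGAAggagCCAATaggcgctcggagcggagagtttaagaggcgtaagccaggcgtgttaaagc
CCNB2 and PLK1 both have the CHR at -29 to -24, with CCAAT at -120, -87 and -54 in CCNB2 (a further one lies at -244) and at -73 in PLK1. CDC20 has it at -65 to -60 and, on the opposite strand, at -178 to -173, and CCNA2 has one CCAAT on the opposite strand at -56 to -52 and no match to the CHR letters searched. A match is a description of the letters and shows no binding. Only TTTGAA and TTCGAA were searched as CHR letters, so a promoter without a match may still carry the element in another form. The CCNA2 stretch holds cttgaa, which was not searched.

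The first comparison asked how the level of these genes differed between the separately kept 25 mM and 5 mM cultures, before any rise. Of the 36, 19 were higher at 25 mM than at 5 mM and none was lower. The largest rise was that of CCNA2, cyclin A2, at 1.52 times its 5 mM level, followed by the kinase PLK1, the spindle motor KIF11 and the midzone motor KIF20A at 1.32 to 1.33 times. The 19 called (adjusted p under 0.05 in limma, fitted over 11941 genes) compare with 17.0% of all genes called higher and 22.1% called lower. Of the 17 that did not pass, 14 had a fitted value above 0, so 33 of 36 in all, against 49.3% of genes tested. The median log2 change was 0.21 over the 36 and -0.0040 over all genes tested. The groups did not overlap, with 25 mM higher, for 24 of the 36, against 32.4% of genes, and for 1 gene, KIF2C, with 25 mM lower, against 35.3%. Before adjustment, 22 had p under 0.05 with a higher level and 1 with a lower one, and voom on the recovered reads called 20 higher and 0 lower. Fewer cells in G2 and M phase and less RNA of these genes per cell cannot be told apart in bulk RNA.

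Members and other genes differ in base composition, with a median transcript GC content of 42.9% for the 36 and 48.4% for the genes tested. A correction for GC content in each library moved the split of all calls from 2032 higher and 2639 lower to 3811 higher and 2292 lower, and the members called higher from 19 to 26, still with none lower. The difference between the members' median and that of all genes was 0.22 without and 0.21 with that correction. Without 5 mM replicate 3, 15 members were called higher, against 17.4% of all genes in that fit, and 2, BUB1 and KIF2C, were called lower, against 20.1%.

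**Figure D2:**
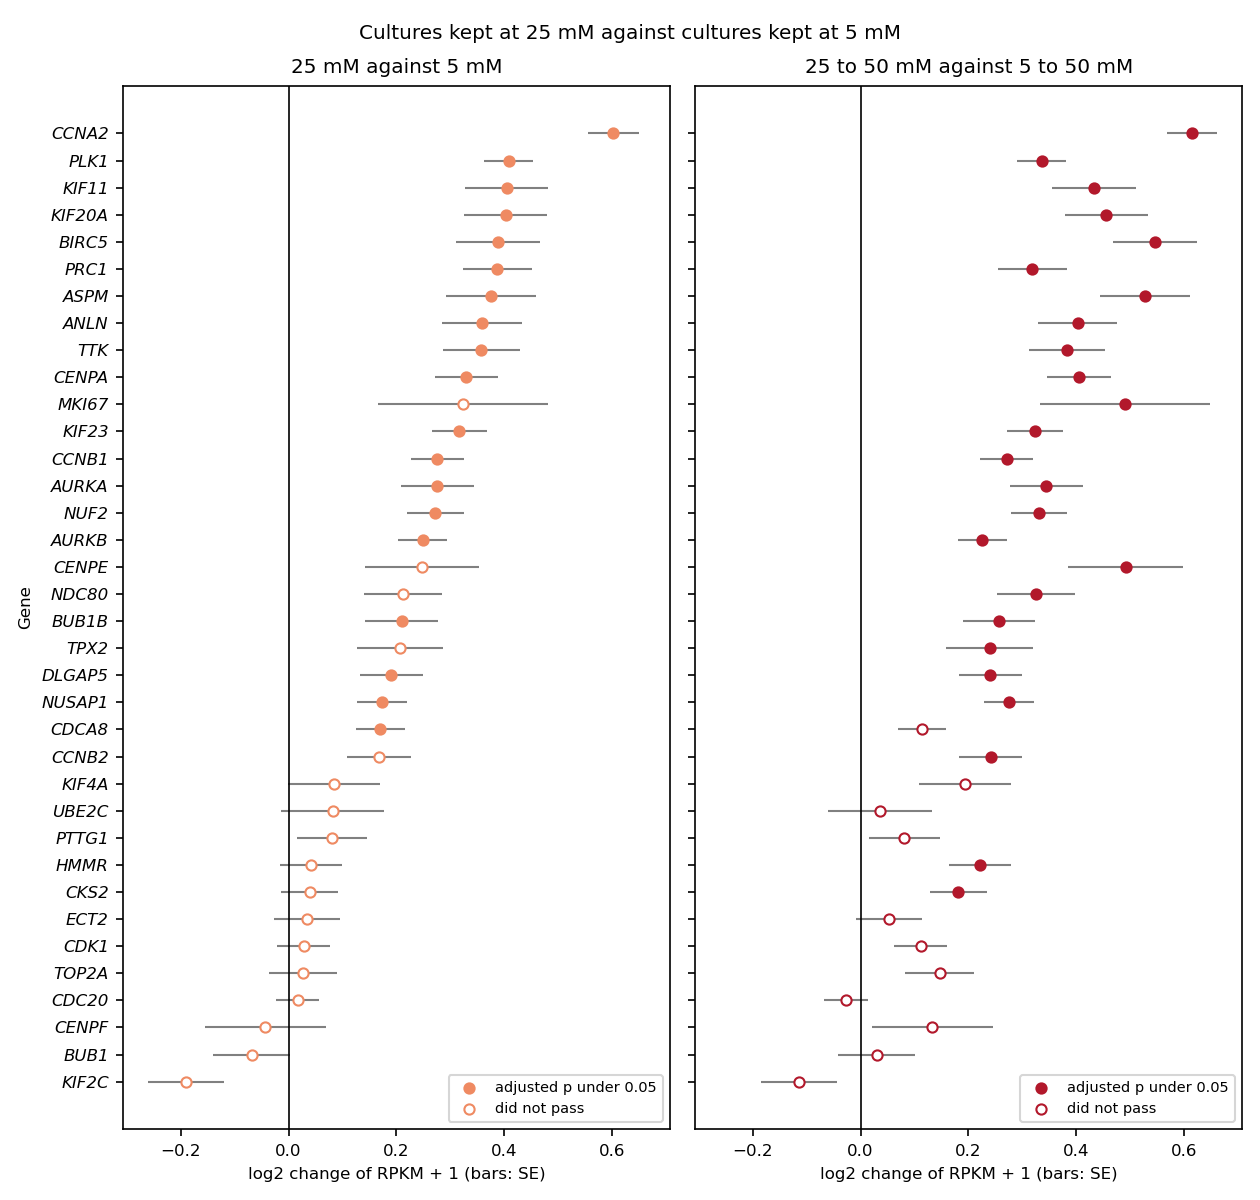
Fitted log2 change of RPKM + 1 (points) with its standard error (bars) for each of the 36 genes, at 25 mM against 5 mM (left) and at 25 to 50 mM against 5 to 50 mM (right). Filled points have an adjusted p under 0.05, 19 on the left and 25 on the right, and all of them lie above 0.

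Of CDK1 and its 4 partners, CCNA2 and CCNB1 passed and the kinase itself did not. CCNA2 stood at 167 and 171 RPKM at 25 mM, against 112 and 109.5 RPKM at 5 mM, a gap many times the distance between libraries of a group (log2 change 0.60 ± 0.05 (SE), adjusted p = 6.12e-05). Cyclin A2 serves in S phase as well as in G2. CCNB1, cyclin B1, which switches CDK1 on at mitotic entry, stood at 371 and 381 RPKM at 25 mM, against 321 and 299.9 RPKM at 5 mM (log2 change 0.28 ± 0.05, adjusted p = 0.0036). CCNB2, cyclin B2, stood at 137 and 148 RPKM, against 128 and 125 RPKM, which did not overlap but just missed the threshold (adjusted p = 0.0548). CDK1 itself had 222 and 240.3 RPKM at 25 mM, against 229 and 224 RPKM at 5 mM, and the groups overlapped (log2 change 0.03 ± 0.05, adjusted p = 0.687). CKS2 had 676 and 686 RPKM, against 655 and 671 RPKM, with an adjusted p of 0.592. CDK1 activity also depends on its phosphorylation, which RNA does not show.

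Of the 6 mitotic kinases, 5 passed. PLK1, the polo kinase that acts from entry to cytokinesis, had 219 and 224 RPKM at 25 mM, against 162 and 171 RPKM at 5 mM (log2 change 0.41 ± 0.05, adjusted p = 0.000361). AURKA, the spindle pole aurora kinase, had 239 and 237 RPKM, against 209 and 184 RPKM (0.28 ± 0.07, adjusted p = 0.0149). AURKB, the aurora kinase of the chromosomal passenger complex, had 175 and 183 RPKM, against 149 and 152 RPKM (0.25 ± 0.05, adjusted p = 0.00406). In all 3 the 25 mM libraries lay above the 5 mM libraries. The checkpoint kinases split. TTK, which starts checkpoint signalling at unattached kinetochores, rose by 0.36 and BUB1B, the checkpoint protein BubR1, by 0.21 on the log2 scale, while BUB1 had 63.8 and 65.0 RPKM at 25 mM, inside or at the edge of the 72.9 and 62.7 RPKM seen at 5 mM (adjusted p = 0.488).

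The passenger complex partners of AURKB both rose. BIRC5, survivin, had 158 and 171 RPKM at 25 mM, against 116 and 135 RPKM at 5 mM (log2 change 0.39 ± 0.08, adjusted p = 0.00592). CDCA8, borealin, had 116 and 112 RPKM, against 102 and 99.8 RPKM (0.17 ± 0.05, adjusted p = 0.0201). The complex corrects faulty attachments between spindle and kinetochore and later moves to the midzone.

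At the kinetochore and centromere 2 of 5 passed. CENPA, the histone variant that marks centromeres, had 56.1 and 55.4 RPKM at 25 mM, against 42.1 and 46.3 RPKM at 5 mM (log2 change 0.33 ± 0.06, adjusted p = 0.00348). NUF2, a subunit of the complex that grips microtubules, had 91.3 and 96.7 RPKM, against 79.9 and 75.4 RPKM (0.27 ± 0.05, adjusted p = 0.00509). Its direct partner NDC80 had 111 and 123 RPKM, against 107 and 95.3 RPKM, and missed the threshold at an adjusted p of 0.0502. CENPE, with 21.3 and 19.9 RPKM against 19.3 and 15.3 RPKM, and CENPF, with 67.3 and 54.7 RPKM against 68.5 and 57.1 RPKM, did not pass, and the sign of the CENPF value turned with the GC correction.

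Spindle assembly factors were divided, 4 of 8 passing. KIF11, the motor that pushes the spindle poles apart, had 85.5 and 89.8 RPKM at 25 mM, against 71.7 and 60.6 RPKM at 5 mM (log2 change 0.41 ± 0.08, adjusted p = 0.00481). ASPM, a spindle pole protein, had 44.9 and 39.5 RPKM, against 33.9 and 30.6 RPKM (0.38 ± 0.08, adjusted p = 0.00935). NUSAP1, which binds and bundles spindle microtubules, had 186 and 196 RPKM, against 170.2 and 168 RPKM (0.17 ± 0.05, adjusted p = 0.0216). DLGAP5, another spindle microtubule binder, rose by 0.19. TPX2, which activates AURKA on the spindle, had 239 and 251 RPKM, against 232 and 194 RPKM (adjusted p = 0.0767), and KIF4A and HMMR were closer still, at log2 changes of 0.08 and 0.04. KIF2C, a kinesin that takes microtubules apart at the centromere, was the only member whose 25 mM libraries, at 103 and 109 RPKM, lay below both 5 mM libraries, at 129 and 114 RPKM (log2 change -0.19 ± 0.07, adjusted p = 0.0676).

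The genes of the midzone and cytokinesis were called in 4 of 5 cases. PRC1, which bundles the antiparallel microtubules of the midzone, had 215 and 217 RPKM at 25 mM, against 176 and 154 RPKM at 5 mM (log2 change 0.39 ± 0.06, adjusted p = 0.00251). KIF20A, a midzone motor that carries the passenger complex, had 114 and 111 RPKM, against 92.8 and 78.1 RPKM (0.40 ± 0.08, adjusted p = 0.00483). KIF23, the motor of centralspindlin, had 127 and 128 RPKM, against 106 and 98.1 RPKM (0.32 ± 0.05, adjusted p = 0.00222). ANLN, anillin, the scaffold of the contractile ring, had 352 and 349.8 RPKM, against 297 and 252 RPKM (0.36 ± 0.07, adjusted p = 0.00683). ECT2, the exchange factor that activates RhoA at the division site, had 72.9 and 75.7 RPKM, against 75.8 and 69.4 RPKM, and did not pass (adjusted p = 0.686).

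None of the 3 genes around the anaphase promoting complex passed, nor any at an unadjusted p under 0.05 in limma or voom. CDC20, its mitotic activator, had 227 and 225 RPKM at 25 mM, against 219 and 227 RPKM at 5 mM, a log2 change of 0.02 ± 0.04 (adjusted p = 0.778). UBE2C, its ubiquitin-conjugating enzyme, had 395 and 437 RPKM, against 362 and 426 RPKM (adjusted p = 0.539). PTTG1, securin, had 347 and 352 RPKM, against 348 and 314 RPKM (adjusted p = 0.367). TOP2A, the topoisomerase that untangles sister chromatids, had 174 and 181 RPKM, against 185 and 164 RPKM (0.03 ± 0.06, adjusted p = 0.77). MKI67 had 102 and 73.4 RPKM at 25 mM, against 77.7 and 61.4 RPKM at 5 mM, a log2 change of 0.32 whose standard error of 0.16 was the widest of the 36 (adjusted p = 0.143). For MKI67 the spread between libraries of a group was as large as the gap between groups.

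**Figure D3:**
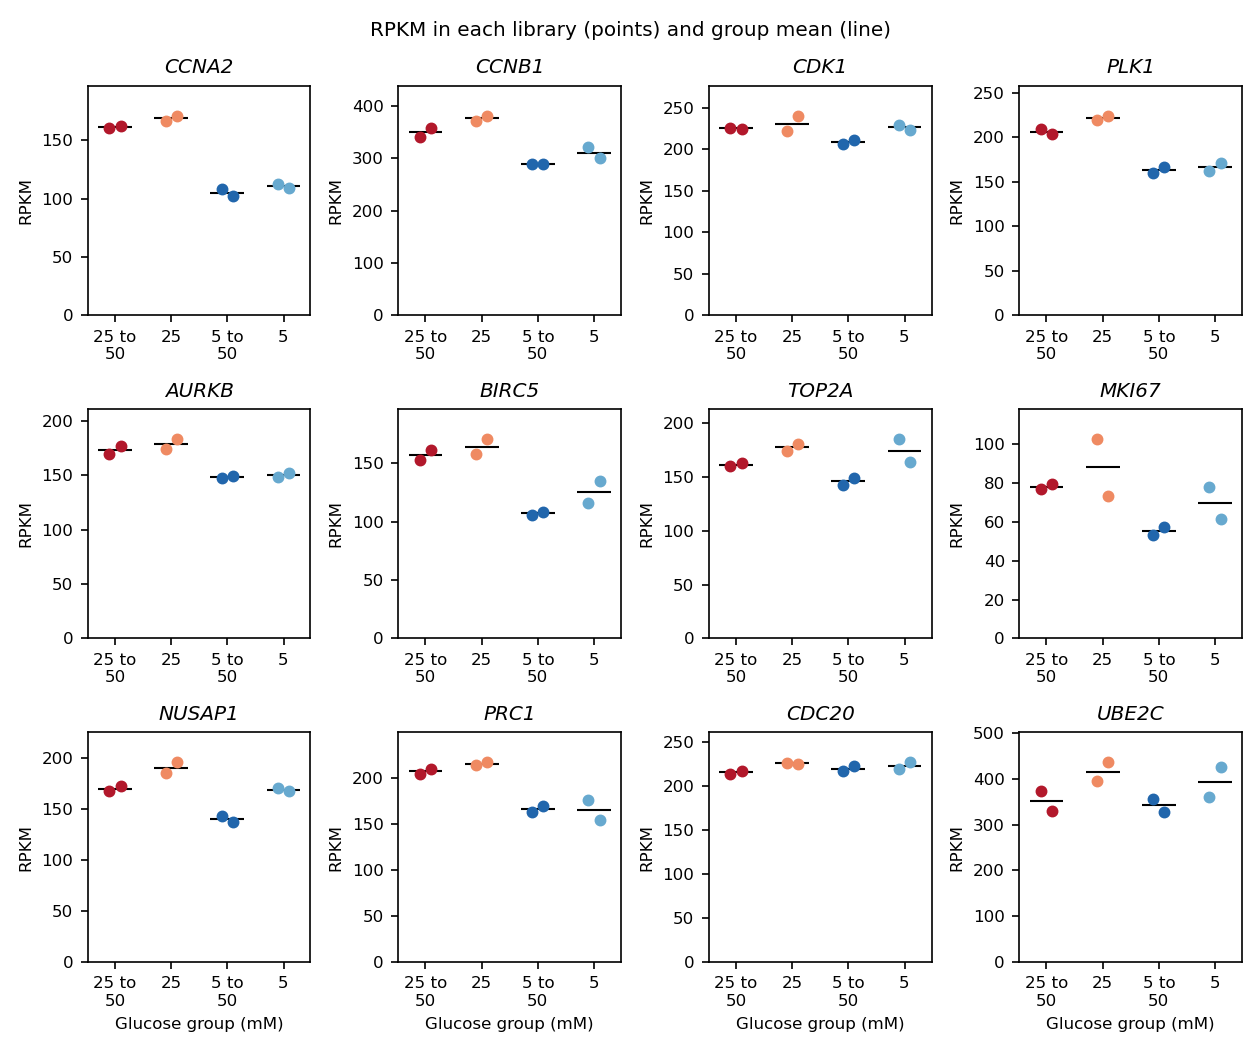
RPKM of 12 of the genes in each library (points, linear axis from 0) with the group mean (line), for the groups 25 to 50 mM, 25 mM, 5 to 50 mM and 5 mM from left to right. CCNA2 and PLK1 separate all 4 libraries with a 25 mM history from the 4 with a 5 mM history, CDC20 is level, and the 25 mM libraries of MKI67 lie far apart, at 102 and 73.4 RPKM.

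The motif letters can be set beside this result. CHR letters were in 12 of the 16 called genes whose promoter was matched and in 12 of the 15 others, and a CCAAT pair was in 7 of 16 and 10 of 15. These counts cover only the letters searched. CCNA2 had the largest change and no match to those CHR letters, which do not include the cttgaa in its stretch. CDC20 had the CHR, a CCAAT pair and a log2 change of 0.02. Both are among the promoters shown above.

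The second comparison set the histories side by side at the same final glucose, with the 25 to 50 mM libraries against the 5 to 50 mM libraries. These are other libraries than those of the first comparison, but both comparisons were fitted on all 8 libraries with a shared spread. The raised cells also came from the separately kept 25 mM and 5 mM cultures, so a difference between those cultures could recur here. Calls shared by both comparisons are therefore not separate evidence. At 50 mM, 25 of the 36 genes were higher with a 25 mM history and none was lower, against 18.1% and 23.3% of 11941 genes tested. The fitted value was above 0 for 34 of 36, against 46.8% of genes, and below 0 for 2, against 53.2%, and the median log2 change was 0.26 over the members and -0.02 over all genes. The groups did not overlap, with the 25 mM history higher, for 30 of 36, against 34.8% of genes, and with it lower for 1, against 39.9%. In all, 18 genes were called in both comparisons and 10 in neither. Before adjustment, 26 had p under 0.05 with a higher level and 0 with a lower one, and voom called 25 higher and 0 lower. The split of all calls, 2164 higher and 2782 lower, became 2799 and 2377 with median centring and 4141 and 2299 with the GC correction, with 28 and 30 members higher in these settings. The GC correction shifted the median of all genes from -0.02 to 0.09, and relative to that median the members stood at 0.29 without it and 0.26 with it. Without 5 to 50 mM replicate 1, 16 members were called higher, against 10.3% of all genes in that fit.

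CCNA2 again led, with 161 and 162 RPKM at 25 to 50 mM, against 108 and 102 RPKM at 5 to 50 mM (log2 change 0.62 ± 0.05, adjusted p = 4.95e-05). BIRC5 had 153 and 161 RPKM, against 106 and 108 RPKM (0.55 ± 0.08, adjusted p = 0.00113). ASPM had 38.9 and 40.5 RPKM, against 26.1 and 28.4 RPKM (0.53 ± 0.08, adjusted p = 0.00181). KIF20A had 105 and 109 RPKM, against 76.8 and 78.1 RPKM (0.46 ± 0.08, adjusted p = 0.00253). CENPA had 56.0 and 54.1 RPKM, against 40.8 and 41.8 RPKM (0.41 ± 0.06, adjusted p = 0.00122). In these 5 genes the groups lay well apart and the libraries of a group close together. PLK1, at 209 and 204 RPKM against 160.2 and 166 RPKM, and CCNB1, at 340.3 and 359 RPKM against 289.8 and 289 RPKM, rose by 0.34 and 0.27. NUF2, at 86.1 and 88.9 RPKM against 68.7 and 70.0 RPKM, rose by 0.33. KIF23, at 118 and 121 RPKM against 96.5 and 94.1 RPKM, rose by 0.32. None of these groups overlapped.

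The 7 genes called in this comparison and not in the first were CENPE, MKI67, NDC80, CCNB2, TPX2, HMMR and CKS2. CENPE had 20.6 and 21 RPKM at 25 to 50 mM, against 13.9 and 15.1 RPKM at 5 to 50 mM (log2 change 0.49 ± 0.11, adjusted p = 0.00793). MKI67 had 76.9 and 79.3 RPKM, against 53.4 and 57.2 RPKM (0.49 ± 0.16, adjusted p = 0.0391). NDC80 had 109 and 115 RPKM, against 87.9 and 90.1 RPKM (0.33 ± 0.07, adjusted p = 0.00879). In each the libraries of a group lay close together here. HMMR, a spindle microtubule binder, had 58.2 and 60.9 RPKM, against 50.8 and 51 RPKM, and CKS2 had 668 and 710.0 RPKM, against 584 and 632 RPKM. That a gene passed in 1 comparison and not in the other does not show that its 2 changes differ, which is tested below as the difference between the rises. CDCA8 was called only at the starting glucose, with 106 and 105 RPKM at 25 to 50 mM against 99.4 and 95.7 RPKM at 5 to 50 mM (adjusted p = 0.0778).

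The 10 genes that passed in neither comparison were CDK1, BUB1, CENPF, TOP2A, KIF2C, KIF4A, ECT2, CDC20, UBE2C and PTTG1. At 50 mM, CDK1 had 226 and 225 RPKM with a 25 mM history, against 206 and 212 RPKM with a 5 mM history (log2 change 0.11 ± 0.05, adjusted p = 0.108), and TOP2A had 159 and 163 RPKM, against 142 and 149 RPKM (0.15 ± 0.06, adjusted p = 0.102). Neither overlapped, and neither passed. CDC20 had 214 and 217 RPKM, against 217 and 222 RPKM, with a log2 change of -0.03 whose sign turned with median centring and with the GC correction. KIF2C had 98.4 and 107 RPKM, against 109.7 and 112 RPKM (-0.11 ± 0.07, adjusted p = 0.236), and its sign turned with the GC correction. The genes around the anaphase promoting complex were thus the only role with no call in either comparison. In each comparison 0 of 3 had an unadjusted p under 0.05 in limma and in voom. With only 3 genes, such a count cannot be told apart from the shares of all genes called. These were 17.0% higher and 22.1% lower at the starting glucose, and 18.1% and 23.3% at 50 mM. Of 18 other genes of that complex, counted below, 6 were higher and 1 lower at the starting glucose, and 6 and 0 at 50 mM.

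The rise of glucose for 24 h changed none of the 36 genes past the threshold, from either start. At 25 to 50 mM against 25 mM, limma called 0 members, as it did all but 1 of 11422 genes (0.00876% higher and 0.0% lower). Before adjustment, 6 members had p under 0.05 with a lower level and none with a higher one, against 6.45% and 2.80% of genes, and voom called 0 with 7 lower at an unadjusted p under 0.05. The fitted value was below 0 for 34 of 36, against 63.7% of genes, with a median log2 change of -0.08 over the members and -0.03 over all genes. The 25 to 50 mM libraries lay below both controls for 20 of 36, against 29.1% of genes, and above both for 0, against 14.4%. With median centring, 27 members were below 0 and 1 had an unadjusted p under 0.05.

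The 3 lowest p-values were those of NUSAP1, UBE2C and TOP2A. NUSAP1 had 167 and 172 RPKM at 25 to 50 mM, against 186 and 196 RPKM at 25 mM (log2 change -0.17 ± 0.05, adjusted p = 0.502). UBE2C had 373 and 330.2 RPKM, against 395 and 437 RPKM (-0.24 ± 0.08, adjusted p = 0.502), and was called at a log2 change of -0.33 (adjusted p = 0.0227) without 25 to 50 mM replicate 2, when 6.08% of all genes were called lower. TOP2A had 159 and 163 RPKM, against 174 and 181 RPKM (-0.14 ± 0.05, adjusted p = 0.502). In all 3 both raised libraries lay below both controls. CCNB1, at 340.3 and 359 RPKM against 371 and 381 RPKM, and PLK1, at 209 and 204 RPKM against 219 and 224 RPKM, had log2 changes of -0.11 and -0.10. CDK1 and CDC20 had -0.03 and -0.07, and MKI67 had -0.15 with a standard error of 0.14. The change of CDK1 turned above 0 with median centring.

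At 5 to 50 mM against 5 mM, limma again called 0 of the 36, against 0.312% of 11849 genes called higher and 0.0169% called lower. Before adjustment, 10 members had p under 0.05 with a lower level and none with a higher one, against 5.36% and 5.16% of genes, and voom called 0 with 10 lower at an unadjusted p under 0.05. The fitted value was below 0 for 35 of 36, against 59.5% of genes, with a median log2 change of -0.13 over the members and -0.03 over all genes. Both raised libraries lay below both controls for 25 of 36, against 26.0% of genes, and above both for 0, against 16.6%. PRC1 was the exception in sign, with 163 and 169 RPKM at 5 to 50 mM against 176 and 154 RPKM at 5 mM.

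NUSAP1 again had the lowest p, with 143 and 137 RPKM at 5 to 50 mM, against 170.2 and 168 RPKM at 5 mM (log2 change -0.27 ± 0.05, adjusted p = 0.194). HMMR had 50.8 and 51 RPKM, against 63.7 and 59.7 RPKM (-0.27 ± 0.06, adjusted p = 0.253). CCNB2 had 109 and 106 RPKM, against 128 and 125 RPKM (-0.23 ± 0.05, adjusted p = 0.253). In these 3 the libraries of each group lay close together and the groups did not overlap, but none passed over all genes. TOP2A, at 142 and 149 RPKM against 185 and 164 RPKM, had -0.25 (adjusted p = 0.34), and MKI67, at 53.4 and 57.2 RPKM against 77.7 and 61.4 RPKM, had -0.32 ± 0.12 (adjusted p = 0.447). CCNB1 and CDK1 had -0.10 and -0.12, while PLK1 and CDC20 stood near 0 at -0.03 and -0.02, the sign of CDC20 turning with the GC correction. Without 5 mM replicate 3, 12 members passed as lower, among them MKI67, CENPF, TOP2A and HMMR, against 1.05% of all genes in that fit. Without 5 mM replicate 1, 3 passed as lower (BIRC5, NUSAP1 and UBE2C), against 4.16% of all genes, and NUSAP1 was the 1 gene of both sets. When all 8 libraries were fitted together, NUSAP1 alone was called (adjusted p = 0.0492).

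**Figure D4:**
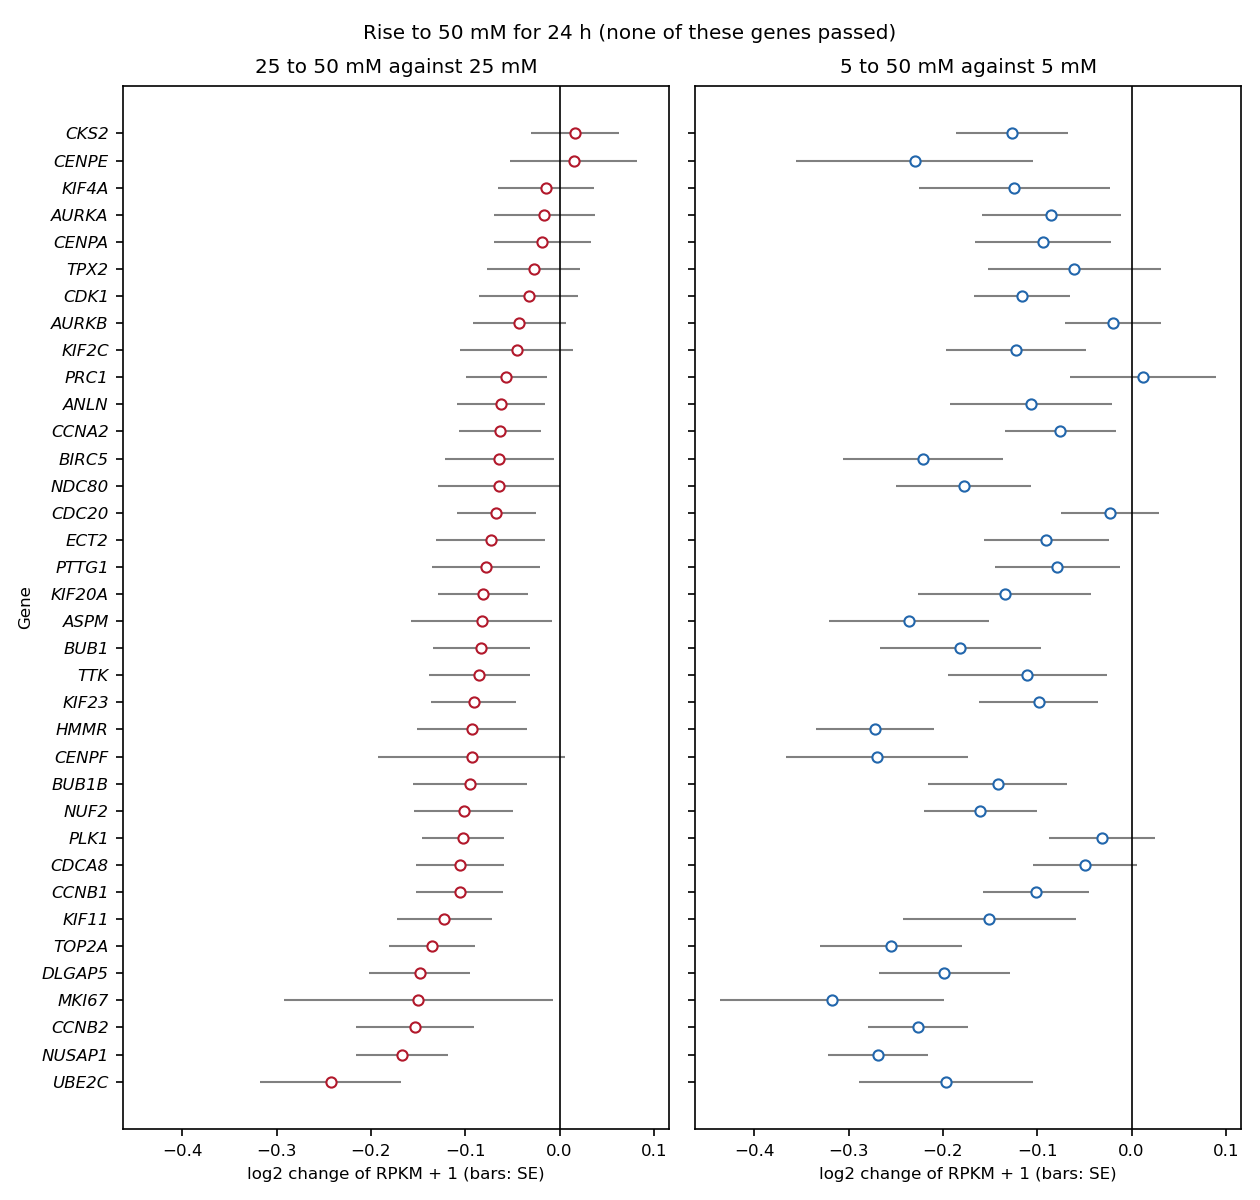
Fitted log2 change of RPKM + 1 (open points, since none passed) with its standard error (bars) for the 36 genes after the rise to 50 mM, from 25 mM (left) and from 5 mM (right). Of the 36, 34 lie below 0 on the left and 35 on the right, and 33 in both.

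The rises share no library, so their values can be set beside each other. For 33 of 36 genes the fitted value was below 0 in both, against 43.5% of the 11352 genes tested in both, and for 14 both raised libraries lay below both controls in both, against 10.5%. Across the 36 genes the rises had a Pearson r of 0.42 and a Spearman rho of 0.43, as a description over genes that share libraries. The value from 5 mM was the lower for 29 of 36, which rests on 1 library, as the test of the difference shows. Tested directly on all 8 libraries, the difference between the rises was called for 0 members, against 0.00837% of genes higher and 0.0167% lower, and 0 had an unadjusted p under 0.05 in limma or in voom, against 2.29% of genes higher and 3.74% lower in limma. The fitted difference was above 0 for 29 members, against 46.9% of genes, and below 0 for 7, against 53.1%. Without 5 mM replicate 1 the direction turned, with 15 members above 0, 21 below and a median of -0.010. With all 8 libraries the median difference was 0.06 over the members and -0.0092 over all genes. The lowest p-values were those of HMMR (0.18 ± 0.08, adjusted p = 0.86), CKS2 (0.14 ± 0.07, adjusted p = 0.901) and CENPE (0.24 ± 0.15, adjusted p = 0.961). For CCNB1, CDK1, TOP2A, NUSAP1, MKI67, PLK1 and CDC20 the differences were -0.0048, 0.08, 0.12, 0.10, 0.17, -0.07 and -0.04.

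Replicates of the 5 mM group differed in a way that went with the length and GC content of these genes. In the 5 mM group, replicate 1 lay above replicate 3 for 29 of the 36, by a median of 0.14 on the log2 scale, against -0.0053 over all genes tested. Its excess grew with coding length, with a Pearson r of 0.74 and a Spearman rho of 0.77 across the members, against a Pearson r of 0.23 across all genes. With GC content the r was -0.43 across the members and -0.56 across all genes. In the 25 mM group the r with length was 0.55 (with GC content 0.02), and replicate 1 exceeded replicate 3 most for MKI67, at 1.40 times, and CENPF, at 1.23 times. ASPM, with 10434 coding bases, MKI67 with 9771, CENPF with 9345 and CENPE with 8109 are the longest of the 36. In the raised groups r with length was -0.15 at 25 to 50 mM and -0.29 at 5 to 50 mM, and r with GC content was 0.16 and 0.10 across the members and 0.46 and 0.16 across all genes. The part of this pattern in the results above was not tested. The 7 lowest fitted values after the rise from 5 mM were those of these 4 longest genes and of HMMR, NUSAP1 and TOP2A.

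**Figure D5:**
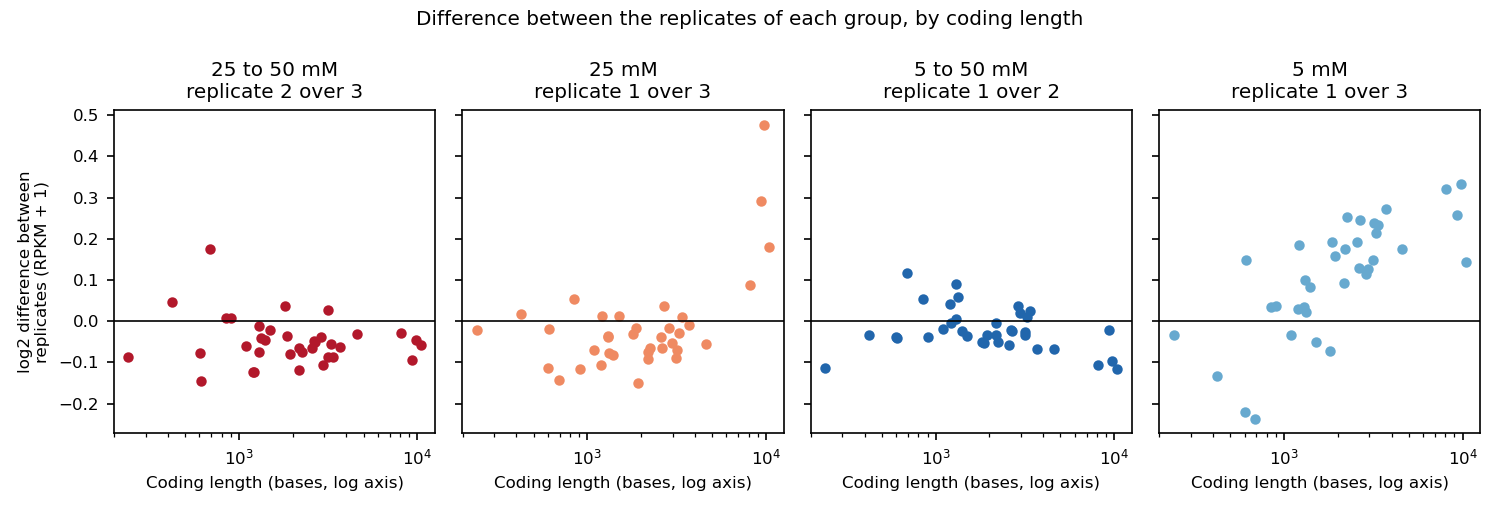
Difference between the replicates of each group (log2 of RPKM + 1) for the 36 genes, by coding length in bases on a log axis, with 1 panel for each group. In the 5 mM group the difference climbs with length (Pearson r of 0.74), in the 25 mM group the longest genes stand highest, and the raised groups show no such climb.

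Other genes of the same machinery were counted from lists written for this work with earlier results of these data in view. Their counts stand beside the shares of all genes called, 17.0% higher and 22.1% lower at 25 mM against 5 mM. At 25 mM against 5 mM, 17 of 37 other checkpoint and kinetochore genes were higher and 1 was lower. Fewer were higher without 25 mM replicate 3, as over all genes, and more were lower without 5 mM replicate 1. SPDL1, which brings dynein to kinetochores, had 132 and 138 RPKM, against 87.3 and 83.1 RPKM (log2 change 0.66 ± 0.06, adjusted p = 9.2e-05), and CENPK, ZW10 and MIS18A rose by 0.33, 0.45 and 0.50. Of 36 other kinesins and spindle proteins, 18 were higher and 1 lower. Without either 25 mM library fewer were higher, as over all genes. The lower call was lost without either of these libraries or 5 mM replicate 1. LMNB1, lamin B1 of the nuclear envelope, had 156 and 162 RPKM, against 105 and 99 RPKM (0.63 ± 0.05, adjusted p = 7.25e-05), and TACC3, CEP55 and DEPDC1B rose by 0.33, 0.36 and 0.43. Of 17 condensin and cohesin genes, 7 were higher and 0 lower, and no further one had an unadjusted p under 0.05 in limma or voom. With the GC correction 12 were higher, against 31.9% of all genes, and more than 7 were higher without 5 mM replicate 1. SMC4, a condensin core subunit, had 142 and 146 RPKM, against 99.8 and 92.4 RPKM (0.58 ± 0.05, adjusted p = 0.000124), and CDCA5, sororin, rose by 0.50. Of 18 subunits and regulators of the anaphase promoting complex, 6 were higher and 1 lower. The lower call was lost with any library left out other than 5 mM replicate 3, without which the count grew. With the GC correction 10 were higher and 0 lower, against 31.9% and 19.2% of all genes. ANAPC15, CDC16, ANAPC7 and ANAPC5 rose by 0.48, 0.47, 0.33 and 0.29.

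Upstream of the 36, of 21 activators and repressors of late cell cycle transcription, 2 rose and 4 fell at 25 mM against 5 mM, with a median log2 change of 0.10. Both counts lie under the shares of all genes, 17.0% and 22.1%. MYBL2, which encodes B-MYB, had 250.6 and 239 RPKM at 25 mM, against 142 and 143 RPKM at 5 mM (0.77 ± 0.05, adjusted p = 1.69e-05). TFDP1, a partner of the E2F factors, had 263 and 263 RPKM, against 195 and 193 RPKM (0.44 ± 0.05, adjusted p = 0.000307). MYBL2 and TFDP1 were the 2 that rose, so FOXM1, the other activator named above and also in the list, was not called higher. RBBP4, a DREAM subunit, fell by 0.26 and E2F8, a repressor, by 0.30. The count that fell was smaller without either 25 mM library or either 5 to 50 mM library, as it was over all genes. It was also smaller without 5 mM replicate 1, and more genes of the list rose without 5 mM replicate 3. The GC correction gave 10 that rose and 4 that fell, against 31.9% and 19.2% of all genes in that setting. A list of 15 genes of the CDK1 switch mixes genes that turn CDK1 on with inhibitors that hold it off. Of these, 5 rose and 1 fell, against 17.0% and 22.1% of all genes, and 9 rose with the GC correction, against 31.9%. Fewer rose without either 25 mM library, either 5 to 50 mM library or 5 mM replicate 1. BORA, which helps AURKA activate PLK1, CDC25A, a CDK phosphatase, and CCNF, cyclin F, rose by 0.51, 0.52 and 0.25. CDKN1A, the CDK inhibitor p21, fell, with 50.6 and 54.9 RPKM at 25 mM against 141 and 224 RPKM at 5 mM (-1.73 ± 0.23, adjusted p = 0.000827).

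CDKN1A is also a target of p53. Of 20 such targets, 15 fell and 0 rose at 25 mM against 5 mM, against 22.1% and 17.0% of all genes. Their median log2 change was -0.62. Fewer of them fell without 25 mM replicate 1, as over all genes, and the count of 0 that rose did not hold without 5 mM replicate 1. Before adjustment 1 had p under 0.05 in limma with a higher level, and voom called 0 higher and 14 lower. FAS, a death receptor, had 5.06 and 5.51 RPKM, against 14 and 14.7 RPKM (-1.29 ± 0.09, adjusted p = 3.71e-05). MDM2, the ubiquitin ligase of p53, had 25.7 and 25.8 RPKM, against 41.5 and 39.9 RPKM (-0.64 ± 0.06, adjusted p = 0.000162). GDF15 and SESN2 fell by 3.21 and 1.02. Of 41 genes of the G1/S step and DNA replication, 13 rose and 6 fell, against 17.0% and 22.1% of all genes. With the GC correction 22 rose and 3 fell, against 31.9% and 19.2%. Without either 25 mM library fewer rose and fewer fell, as over all genes. The G1 cyclins CCND1, at 18.6 and 21.1 RPKM against 107 and 129.7 RPKM, and CCNE1, at 2.61 and 2.30 RPKM against 6.51 and 6.25 RPKM, fell by 2.51 and 1.10, while the kinase CDK6 and the replication factor GINS2 rose by 0.98 and 0.31.

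The lists were also counted at the same final glucose of 50 mM, for a 25 mM against a 5 mM history, where 18.1% of all genes were called higher and 23.3% lower. These shares were 34.7% and 19.3% with the GC correction and 23.4% and 19.9% with median centring. With a library of either raised group left out, fewer of all genes were called in each direction. Of the checkpoint and kinetochore genes 16 were higher and 1 lower, and 26 were higher with the GC correction. The lower call was lost without 25 to 50 mM replicate 3 or 5 to 50 mM replicate 2. Of the kinesins and spindle proteins 18 were higher and 1 lower, with 31 higher and 0 lower under the GC correction. Fewer were higher without either 5 to 50 mM library. The lower call was lost without either library of 25 mM or of 25 to 50 mM, or without 5 to 50 mM replicate 2. Of the condensin and cohesin genes 10 were higher and 0 lower, and fewer were higher without either 5 to 50 mM library or 25 to 50 mM replicate 3. Of the genes of the anaphase promoting complex 6 were higher and 0 lower, with 12 higher under the GC correction. A gene of that list was called lower without either 5 mM library. Before adjustment, neither limma nor voom had a gene of these 2 lists with p under 0.05 and a lower level. For the activators and repressors the count was 5 higher and 4 lower. It became 9 and 1 with median centring and 10 and 1 with the GC correction. Fewer were higher without either 25 to 50 mM library or 5 to 50 mM replicate 2. Fewer were lower with a library of either raised group left out. For the CDK1 switch the count was 5 and 1, with 8 higher under the GC correction. For G1/S and replication it was 17 and 3, and 27 and 2 with that correction. For the p53 targets it was 1 and 9, and 2 and 9 with that correction. Fewer switch genes were higher without 25 to 50 mM replicate 2 or 5 to 50 mM replicate 1. Fewer G1/S genes were higher without either 5 to 50 mM library or 25 to 50 mM replicate 3. Fewer p53 targets were lower without 5 to 50 mM replicate 1 or 25 to 50 mM replicate 3. The higher p53 target was lost without these or 5 to 50 mM replicate 2. MYBL2 had 239 and 250.2 RPKM at 25 to 50 mM, against 141 and 142 RPKM at 5 to 50 mM, and CDKN1A had 57 and 39 RPKM, against 147 and 136 RPKM. In both rises and in their difference limma called 0 genes of each of the 8 lists, as did voom. From 25 mM, at most 5 genes of a list had an unadjusted p under 0.05 in limma, in the kinesin and spindle list. From 5 mM, the most were 9 p53 targets, all lower.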

How the data were processed

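RNA-seq was deposited as RPKM in 2 tables that the authors made, with reads aligned to hg38 by STAR, per the submitters' processing notes; the counting tool, annotation and lengths are not given in the sources used here. The lengths read back from the values behave as coding lengths, and whole reads were recovered for 100% of 16297 genes above 0 within a tolerance of 0.01. The tables were joined on gene identifier. Tests ran on log2(RPKM + 1) over all genes that passed the filter, in limma 3.58.1 (R 4.3.3) with a mean trend, two-sided, with Benjamini-Hochberg adjustment and a threshold of 0.05. Each rise was fitted on its own 4 libraries, and comparisons between histories and the difference between rises on all 8. Alternatives were voom on recovered reads, other pseudocounts and filters, median centring, GC correction, a replicate block and leaving out each library. Members and lists were chosen with earlier results of these data known. All 36 members may be named, with values in every library for 7 preset genes and up to 8 called members (otherwise the 3 of lowest p), and up to 4 called genes of each other list (otherwise 2). The method was tested on simulated data.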

Additional observations from a re-analysis of the deposited data

How the results depend on the processing

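At 25 mM against 5 mM, leaving out 1 library gave 15 to 23 members higher, 0 to 2 lower and a median of 0.16 to 0.27; the GC correction gave a median of 0.30. Of the 19 calls, 13 passed in all 18 alternatives, and BUB1B and DLGAP5 passed in the fewest, 8 and 9. At 25 to 50 mM against 5 to 50 mM, leaving out 1 library gave 16 to 27 members, and the median was 0.32 with median centring and 0.35 with the GC correction; 15 of the 25 calls passed in all 18 alternatives. From 25 mM, leaving out 1 library gave 0 to 1 called lower, and the median was -0.033 with median centring. From 5 mM, it gave 0 to 12 called lower and medians of -0.20 to -0.067, and the fit of all 8 libraries called 1. The median difference between the rises ran from -0.010 (without 5 mM replicate 1, with 15 members above 0 and 21 below) to 0.12. The share of all genes called moved between these fits as well, and these ranges are not set against it. The causes were not tested.

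Samples that share a replicate number were not shown to be paired: only numbers 1 and 3 are shared by the 25 mM and 5 mM groups, whose differences had r = 0.26 over genes. With the replicate block, 15 members were higher at 25 mM and 17 at 25 to 50 mM, against 11.4% and 10.7% of all genes. With the block and the GC correction these were 24 and 28, against 26.2% and 27.4%. In both settings 0 members were called in either rise or their difference, against at most 0.209% of all genes in a direction. The block with the GC correction gave medians of 0.30 at 25 mM, 0.35 at 25 to 50 mM and -0.040 after the rise from 25 mM.

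The signs that turned were those of genes not called in these comparisons, and the causes were not tested. At 25 mM against 5 mM, with 1 library left out, the values ran from -0.030 to 0.086 for CDK1, -0.061 to 0.11 for TOP2A, -0.0081 to 0.041 for CDC20, -0.051 to 0.22 for KIF4A, -0.18 to 0.039 for BUB1, -0.037 to 0.20 for UBE2C, -0.0041 to 0.089 for HMMR, -0.028 to 0.098 for ECT2 and -0.19 to 0.10 for CENPF. CENPF had 0.0034 with the GC correction, with or without the block. At 25 to 50 mM against 5 to 50 mM, CDC20 had 0.033 with median centring, 0.12 with the GC correction and 0.14 with the block added, and KIF2C had 0.0077 and 0.018 in the last 2 settings. With 1 library left out, ECT2 ran from -0.00081 to 0.11 and UBE2C from -0.052 to 0.12, with -0.011 under the block. From 25 mM, CDK1 ran from -0.091 to 0.025 and MKI67 from -0.39 to 0.088; CDK1 had 0.016 with median centring and CDC20 0.0035 with the block and the GC correction. From 5 mM, PLK1 ran from -0.067 to 0.0054 and CDC20 from -0.047 to 0.0021, and CDC20 had 0.0037 with the GC correction and 0.0093 with the block added. For the difference between the rises, CCNB1 ran from -0.055 to 0.045 and MKI67 from -0.071 to 0.41; CCNB1 had 0.036 with median centring, 0.0044 with the GC correction, 0.00046 with the block and 0.0075 with both.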
